A study of Homo sapiens with 96 samples.

Results

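The comparison described here follows cultured MDA-MB-231 cells from the first hour of an experiment in 3D culture to its end at 24 and 48 h, in arms that received no inhibitor. MDA-MB-231 is an established human breast cancer cell line with a mesenchymal, basal-like phenotype. Members were the arrays of the series labelled 3D04 from the control, EGF and DMSO-EGF arms at the labels 05h (read as 0.5 h), 1h, 24h and 48h, which gave 12 of the 96 arrays of the study. The 6 arrays at 0.5 and 1 h formed the early window, and the 6 at 24 and 48 h the late window. Per the labels, cells at 80% confluence in full serum were moved to low serum 24 h before treatment, and this applied to every group used here. Control cells are labelled as untreated. EGF cells received 10 ng/ml epidermal growth factor (EGF) at 0 h. DMSO-EGF cells received DMSO, the vehicle of the inhibitor, 30 min before the same dose of EGF. A further arm of the same 3D series received 10 uM U0126, an inhibitor of the kinase MEK, 30 min before EGF and was used only for reference. The material or device that made the culture 3D, and any change of medium during the 48 h, are not given in the sources used here. Each arm and time in 3D had 1 array. The arms and times of a window therefore served as its repeats, and p-values measure the spread between these arrays, which are not stated to be separate cultures and share 1 harvest time per 3 arrays.

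When oxygen falls, hypoxia-inducible factors (HIF) escape hydroxylation and degradation and switch on genes for glucose uptake, glycolysis, angiogenesis and matrix cross-linking. When sterols fall, the SREBP factors leave the endoplasmic reticulum and switch on genes of cholesterol and fatty acid synthesis. Cells that slow their cycle lower the E2F-driven genes of DNA replication and then the genes of mitosis, and MYC-driven genes of ribosome synthesis usually fall with growth rate.

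Values were deposited log2-scale expression values per probe set, each relative to a reference that is not stated, so a difference between arrays can be read as a log2 change but a value is not an absolute level. Differences are given as late minus early in log2 units ± the standard error (SE) of the fit, and a gene was called where the limma adjusted p was below 0.05. Array medians of the 96 arrays lay between -0.07 and 0.04, no pair of arrays held identical values, and on the 12 arrays the 5' minus 3' difference was -0.02 to 0.13 for actin and 0.01 to 0.14 for GAPDH. Of 7 markers known to be expressed in this line, 6 lay above the reference on all 12 arrays, from CD44 at 0.18 to 0.40 to VIM, the mesenchymal intermediate filament vimentin, at 3.67 to 3.97. The other was MMP14, at -0.02 to 0.75. The epithelial cadherin CDH1 lay at -4.10 to -3.83 and the luminal factor GATA3 at -3.49 to -2.92. Of 11 leukocyte markers 1 was called lower and 0 higher, of 10 fibroblast markers 1 was called in each direction, and of 9 endothelial markers none was called. Among all genes 16.7% were called higher and 16.9% lower between the windows. Their summed values overlapped between the windows, at -1.88 to -0.88 early and -1.45 to -0.78 late for leukocyte markers, -3.39 to -2.12 and -2.86 to -2.39 for fibroblast markers, and -0.94 to 0.07 and -0.61 to -0.20 for endothelial markers.

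Over 24 to 48 h in 3D the cells raised hypoxia-responsive genes, glycolytic enzymes and sterol synthesis genes and lowered genes of DNA replication, mitosis and ribosome synthesis. Of 11874 genes tested, 3992 (33.6%) were called between the late and early windows, 1986 (16.7%) higher and 2006 (16.9%) lower. The rises were the larger changes. A difference beyond 1 log2 unit was reached by 80 called genes upward and by 8 downward. The direction was the same in the control, EGF and DMSO-EGF arms for 3984 of the 3992. These genes were called from the same arrays, so this agreement follows largely from the call and is not a separate check. All 6 late values lay beyond all 6 early values for 2328 genes (19.6% of those tested). Because the 3 arrays of a time may share effects of their harvest, the fit was repeated with the time as a random block, which called 2646 genes (1362 higher and 1284 lower). With the 3 arms averaged to 1 value per time, 2 values stood against 2, and limma called 0 genes (2862 at an unadjusted p below 0.05, smallest adjusted p 0.117). Without the 0.5 h arrays 1460 genes were called (932 higher and 528 lower), and without the 1 h arrays 2162 (1284 and 878). After quantile normalization 3946 were called (1777 and 2169). Counts of list members under these settings are to be read against these counts of all genes.

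**Figure D1:**
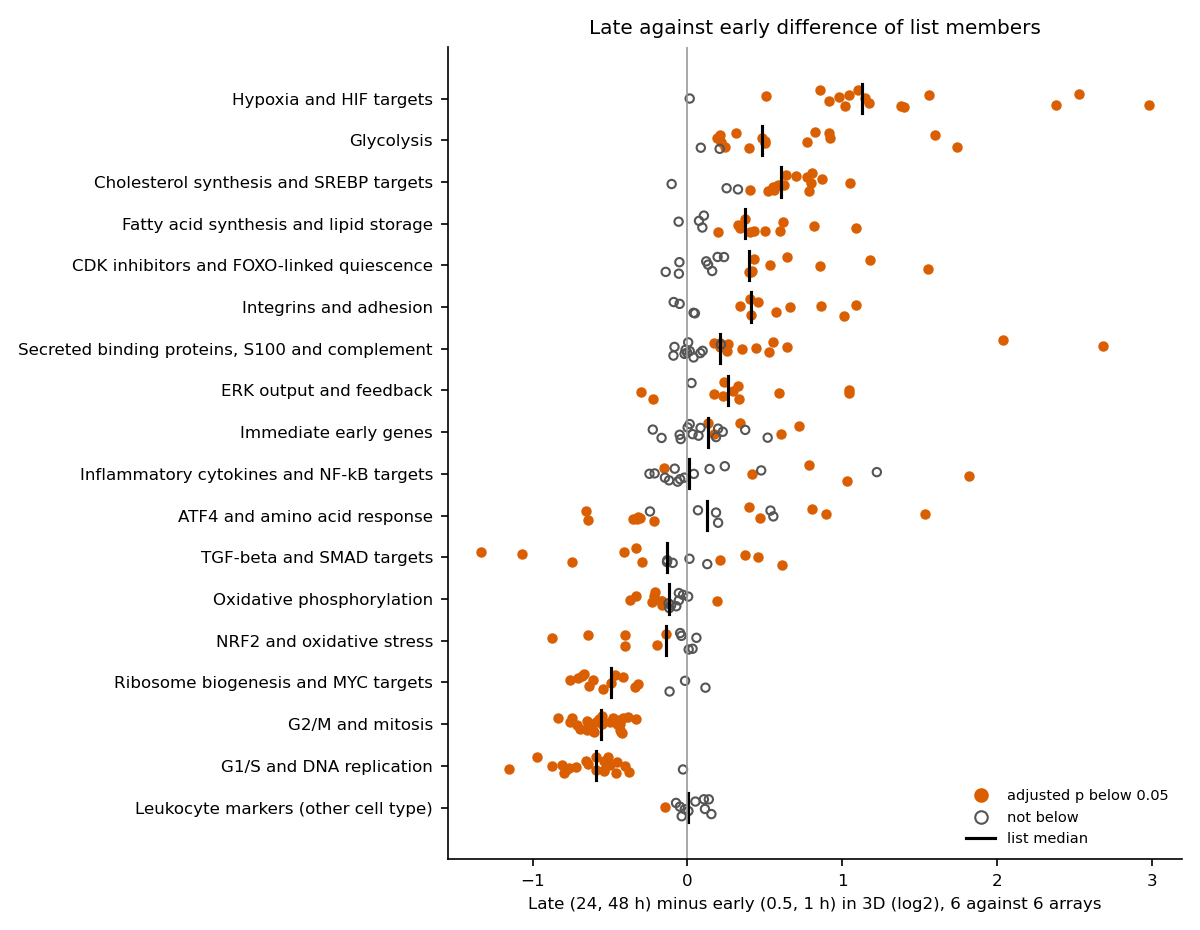
Late minus early difference in 3D (log2, horizontal) of each measured member of 18 gene lists (rows), 6 against 6 arrays; filled points have an adjusted p below 0.05, open points do not, and black bars mark list medians. Hypoxia genes lie furthest to the right with a median of 1.12, and DNA replication and mitosis genes lie to the left with medians of -0.59 and -0.56.

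The listed hypoxia and HIF target genes rose almost as a whole. Oxygen and HIF activity are not given in the sources used here, and the cause of the rise was not tested. Of 16 measured hypoxia genes, 15 were called higher and 0 lower, with a median difference of 1.12, against 16.7% called higher among all genes and a median of -0.01. The exception was STC2, a stanniocalcin, at 0.01 ± 0.16 (named after its values were seen). For all 15 the late and early values did not overlap, which also held for 2301 of the 3992 called genes and for 19.6% of all genes. Printed next are the promoter windows of 4 called members of this and the glycolysis list. These members had the largest differences of their list among those with a matched promoter. The windows hold the core HIF recognition sequence, ACGTG. They are the 250 bases before the annotated start in RefSeq (GRCh38.p14), read in the direction of the gene, with ACGTG or its reverse complement CACGT in capitals. DDIT4 (chr10:72273674-72273923, + strand) held 1 match, 125 bases before the start. LOX (chr5:122078260-122078509, - strand) held 4. In ALDOC (chr17:28576896-28577145, - strand) the palindrome CACGTG, which is also the E-box, holds a match on each strand, and a further match lies 28 bases before the start. ENO2 (chr12:6914330-6914579, + strand) held 1.
DDIT4: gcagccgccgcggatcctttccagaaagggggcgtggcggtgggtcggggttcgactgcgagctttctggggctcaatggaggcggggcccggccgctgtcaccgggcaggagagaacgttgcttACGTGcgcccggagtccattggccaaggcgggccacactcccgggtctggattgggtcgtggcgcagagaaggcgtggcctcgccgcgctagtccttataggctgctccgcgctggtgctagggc
LOX: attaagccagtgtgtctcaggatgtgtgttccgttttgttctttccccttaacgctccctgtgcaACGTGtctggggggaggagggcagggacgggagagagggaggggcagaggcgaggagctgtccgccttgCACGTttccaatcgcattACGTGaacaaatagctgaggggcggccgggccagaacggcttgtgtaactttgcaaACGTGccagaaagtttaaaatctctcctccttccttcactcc
ALDOC: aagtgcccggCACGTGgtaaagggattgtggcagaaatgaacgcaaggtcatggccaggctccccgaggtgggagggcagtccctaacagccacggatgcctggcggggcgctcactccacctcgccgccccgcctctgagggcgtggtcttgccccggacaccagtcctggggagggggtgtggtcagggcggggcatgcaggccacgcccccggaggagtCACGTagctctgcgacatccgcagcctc
ENO2: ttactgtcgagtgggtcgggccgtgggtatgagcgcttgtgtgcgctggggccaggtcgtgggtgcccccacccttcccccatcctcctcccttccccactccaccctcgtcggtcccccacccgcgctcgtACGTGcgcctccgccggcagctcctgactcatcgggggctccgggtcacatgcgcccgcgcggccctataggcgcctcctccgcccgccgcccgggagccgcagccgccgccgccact
Of the 16 hypoxia genes 12 had a promoter in the table, and 6 of these (50%) held ACGTG on either strand. For glycolysis genes it was 8 of 17 (47.1%). Over all tested genes 2069 of 9592 matched promoters (21.6%) did. Such a match is a description of the window and not evidence of binding.

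DDIT4, which encodes an inhibitor of mTORC1 induced by low oxygen and by energy stress, had the highest difference of all 11874 genes. In the order control, EGF, DMSO-EGF its values were -2.74, -2.89 and -2.81 at 0.5 h, -2.69, -2.75 and -2.24 at 1 h, -1.15, -1.18 and -0.75 at 24 h and 1.60, 1.59 and 1.64 at 48 h. Every late value lay above the early ones, and the 48 h values of the 3 arms lay within 0.05 of each other. The difference was 2.98 ± 0.53 (adjusted p 0.00104), or 7.88-fold. LOX, the lysyl oxidase that cross-links collagen, stood in the same order at 0.11, 0.21 and -0.15 at 0.5 h, 0.58, 0.14 and 0.62 at 1 h, 1.60, 1.32 and 2.59 at 24 h and 3.85, 3.68 and 3.63 at 48 h. It rose by 2.53 ± 0.41 (adjusted p 0.000637), with the DMSO-EGF array highest at 24 h and the arms close together at 48 h. NDRG1, a stress- and hypoxia-induced gene, stood at 0.09, -0.03 and -0.06 at 0.5 h, 0.37, 0.16 and 0.83 at 1 h, 1.99, 1.88 and 2.38 at 24 h and 3.07, 3.16 and 3.18 at 48 h. Its difference was 2.38 ± 0.24 (adjusted p 4.51e-05). VEGFA, the angiogenic growth factor, had early values of -0.71 to -0.24 and late values of 0.24 to 1.84, a rise of 1.56 ± 0.25 (adjusted p 0.000531). PDK1, a kinase of pyruvate dehydrogenase, rose by 1.17 ± 0.11 (adjusted p 3.85e-05), with early values of -0.11 to 0.25 and late values of 0.90 to 1.53. EGLN1, the prolyl hydroxylase that marks HIF for degradation, rose by 0.86 ± 0.08, the histone demethylase KDM3A by 1.01 ± 0.10 and the mitophagy receptor BNIP3L by 1.38 ± 0.13. The list median was 1.02 in the control arm, 1.17 in the EGF arm and 1.12 in the DMSO-EGF arm.

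Glycolytic genes followed with smaller changes. Of 17 measured members 15 were called higher and 0 lower (median 0.49), against 16.7% and 16.9% of all genes. The 2 not called were GAPDH, at 0.09 ± 0.05, and ENO1, at 0.21 ± 0.10 (the latter named after its values were seen). ALDOC and ENO2 had the highest differences of the list. ALDOC, the brain-type aldolase, stood at -0.48, -0.40 and -0.42 at 0.5 h, -0.17, -0.45 and 0.09 at 1 h, 1.04, 0.94 and 1.23 at 24 h and 1.78, 1.88 and 1.75 at 48 h, a difference of 1.74 ± 0.17 (adjusted p 3.85e-05). The neuronal enolase, ENO2, rose by 1.60 ± 0.21 (adjusted p 0.000203), with early values of 1.26 to 1.88 and late values of 2.42 to 3.63. PGK1, phosphoglycerate kinase, rose by 0.92 ± 0.12 and PFKFB3, which makes the activator of phosphofructokinase, by 0.82 ± 0.10. PGK1 had 6 probe sets, whose differences ran from 0.11 to 0.92, and the one with the largest SD over all arrays was read. Of 17 genes of oxidative phosphorylation 1 was called higher and 8 lower (median -0.12). With the time as a random block 0 were called higher and 2 lower, and without the 0.5 h arrays 0 and 1. Over all 11874 genes the first fit called 1362 higher and 1284 lower, and the second 932 and 528. COX4I1, a subunit of cytochrome c oxidase, fell by 0.37 ± 0.06 (adjusted p 0.00044).

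Further genes among the 15 with the highest differences lay outside the hypoxia and glycolysis lists. TMEM45A, a transmembrane protein, stood at 0.13, -0.04 and 0.05 at 0.5 h, 0.95, 0.29 and 1.49 at 1 h, 2.60, 2.12 and 3.18 at 24 h and 4.10, 4.26 and 3.88 at 48 h, a rise of 2.88 ± 0.37 (adjusted p 0.000164). At 1 h the control and DMSO-EGF arrays were already above the EGF array. CST1, CST2 and CST4 encode cystatins, secreted inhibitors of cysteine proteases. CST1 stood at 1.42, 1.62 and 1.55 at 0.5 h, 1.89, 1.35 and 2.11 at 1 h, 3.69, 3.55 and 3.83 at 24 h and 5.37, 5.53 and 5.23 at 48 h, a rise of 2.88 ± 0.35 (adjusted p 0.000138). CST4 rose by 2.62 ± 0.35 and CST2 by 2.04 ± 0.28. The sequences of CST1, CST2 and CST4 are closely related, so their probe sets may share signal and the 3 genes are not independent of each other. STC1, the secreted stanniocalcin, stood at 0.82, 0.57 and 0.29 at 0.5 h, 0.96, 0.76 and 1.59 at 1 h, 2.51, 2.85 and 3.21 at 24 h and 4.13, 4.17 and 4.23 at 48 h, and its difference was 2.69 ± 0.31 (adjusted p 0.000105). IGFBP3, which binds insulin-like growth factors, rose by 2.04 ± 0.36 (adjusted p 0.00107), with early values of 0.59 to 1.22 and late values of 1.62 to 3.97. Of the 23 measured secreted binding proteins, S100 and complement genes, 12 were called higher and 0 lower (median 0.21), but 8 after quantile normalization. Among all genes 16.7% were called higher and 16.9% lower. SPAG4 rose by 2.60 ± 0.27, SCEL by 2.08 ± 0.26, RGCC by 1.94 ± 0.20 and DEPP1 by 1.85 ± 0.32. MAP3K7CL rose by 2.04 ± 0.42 (adjusted p 0.00248), a call that was lost without the 0.5 h arrays (adjusted p 0.0711).

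**Figure D2:**
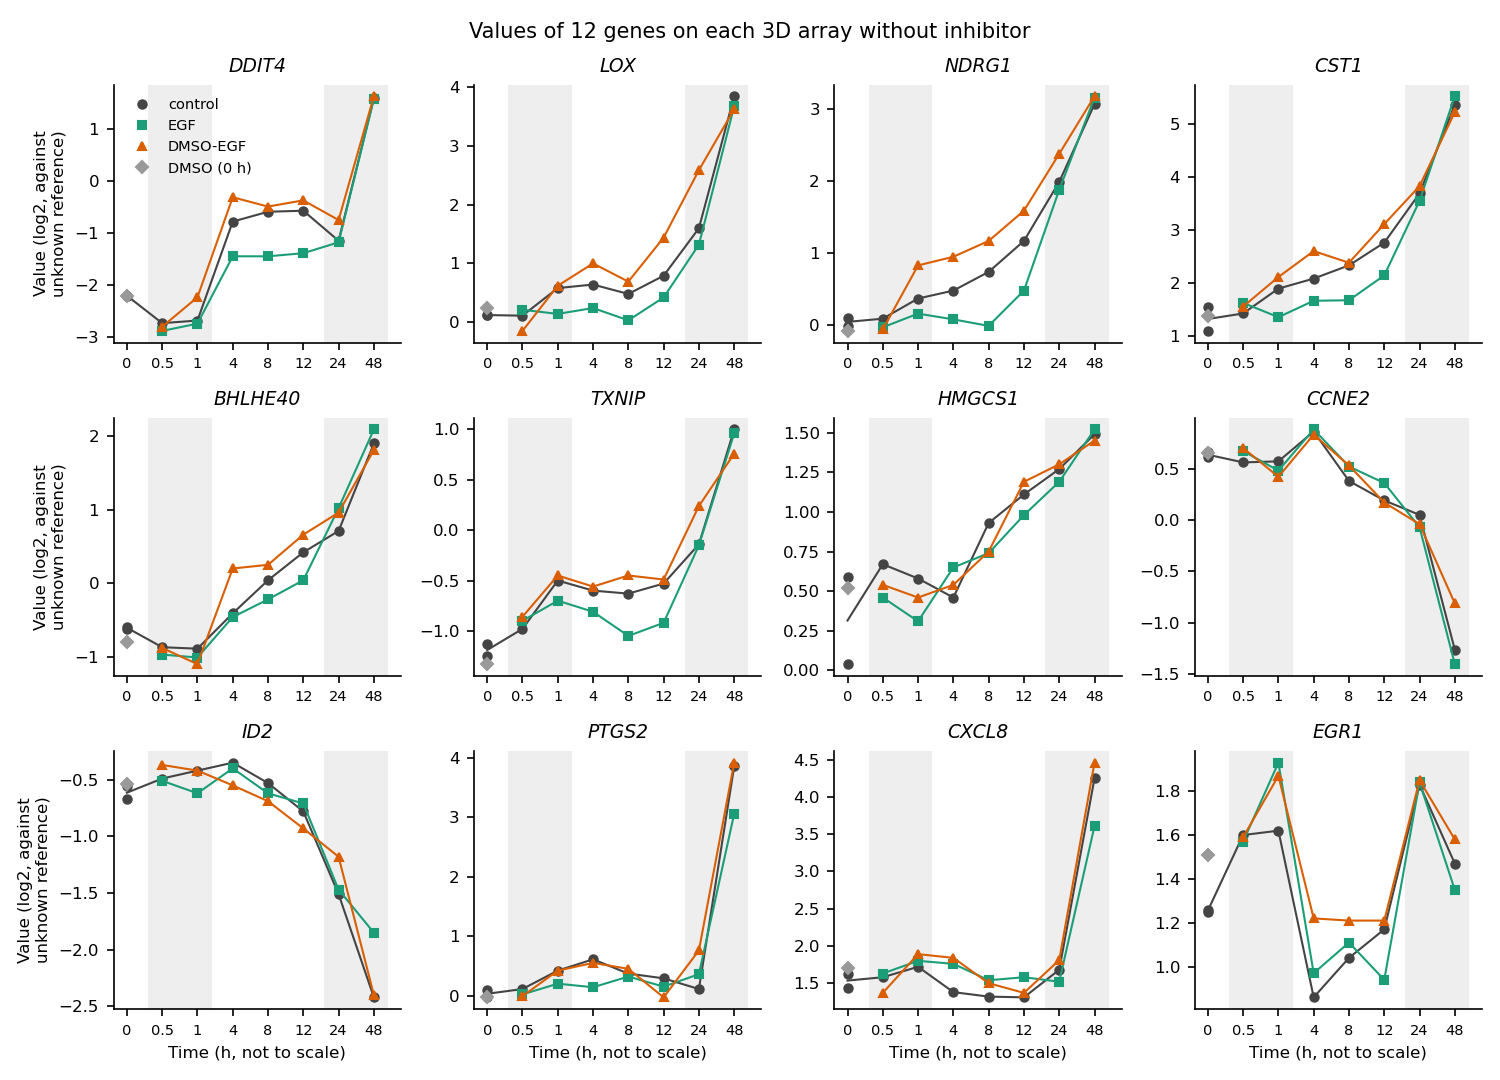
Values of 12 genes (log2, against an unknown reference, vertical) on each 3D array without inhibitor by time (horizontal, not to scale), with lines joining the arrays of an arm (the mean of 2 at 0 h in the control arm) and grey bands marking the early and late windows. DDIT4 climbs from -2.89 to -2.24 early to between 1.59 and 1.64 at 48 h, PTGS2 and CXCL8 rise mainly after 24 h, and EGR1 is at a similar value in both windows.

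Genes of cholesterol synthesis rose together and had nearly reached their final difference at 24 h. Of 18 measured members 15 were called higher and 0 lower, against 16.7% and 16.9% of all genes. The median was 0.60 over both late times, 0.58 at 24 h and 0.65 at 48 h. The windows of LSS (chr21:46228775-46229024, - strand) and HMGCS1 (chr5:43313413-43313662, - strand) are printed, chosen in the same way as those of the hypoxia list. They hold CCAAT, the sequence bound by NF-Y, a partner of SREBP at sterol genes (reverse complement ATTGG, in capitals).
LSS: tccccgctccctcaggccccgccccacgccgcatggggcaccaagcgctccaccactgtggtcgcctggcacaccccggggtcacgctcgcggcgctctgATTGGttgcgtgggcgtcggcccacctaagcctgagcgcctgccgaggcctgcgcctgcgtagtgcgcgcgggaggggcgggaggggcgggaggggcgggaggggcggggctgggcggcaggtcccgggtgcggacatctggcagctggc
HMGCS1: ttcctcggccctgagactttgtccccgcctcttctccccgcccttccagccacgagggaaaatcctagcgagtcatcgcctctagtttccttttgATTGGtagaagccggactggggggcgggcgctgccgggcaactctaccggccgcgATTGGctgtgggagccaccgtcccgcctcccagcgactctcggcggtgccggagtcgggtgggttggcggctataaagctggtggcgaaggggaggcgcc
CCAAT on either strand occurred in 13 of 16 matched promoters of the list (81.2%) and in 35.8% of all matched promoters. LSS, the lanosterol synthase, stood at 0.59, 0.55 and 0.55 at 0.5 h, 0.59, 0.38 and 0.40 at 1 h, 1.33, 1.45 and 1.57 at 24 h and 1.61, 1.85 and 1.55 at 48 h. It rose by 1.05 ± 0.08 (adjusted p 1.28e-05), with no overlap between windows, while the 24 and 48 h values overlapped. HMGCS1, the cytosolic HMG-CoA synthase, stood at 0.67, 0.46 and 0.54 at 0.5 h, 0.58, 0.31 and 0.46 at 1 h, 1.27, 1.19 and 1.30 at 24 h and 1.49, 1.52 and 1.45 at 48 h, a rise of 0.87 ± 0.07 (adjusted p 1.49e-05). SQLE, squalene epoxidase, rose by 0.80 ± 0.06 and DHCR7, which acts late in the pathway, by 0.80 ± 0.06. The 3 members not called were MVK at 0.25 ± 0.11, SC5D at 0.33 ± 0.13 and PMVK at -0.10 ± 0.10 (named after their values were seen). Of 15 genes of fatty acid synthesis and lipid storage 11 were called higher and 0 lower (median 0.37). SCD, the stearoyl-CoA desaturase, rose by 0.81 ± 0.09, with early values of 0.33 to 0.62 and late values of 1.06 to 1.49, and ACSL1, an acyl-CoA synthetase, by 1.09 ± 0.12.

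Proliferation genes fell. Of 23 measured genes of the G1/S transition and DNA replication 22 were called lower and 0 higher (median -0.59), and of 26 genes of G2/M and mitosis all 26 were called lower (median -0.56), against 16.9% of all genes. The exception in the first list was E2F2, at -0.03 ± 0.07 (named after its values were seen). When the 0.5 h arrays were left out the counts were 10 of 23 and 9 of 26 with medians of -0.55 and -0.56. Leaving out those at 1 h gave 19 and 17. Over all 11874 genes 528 were called lower without 0.5 h and 878 without 1 h. The windows of PLK1 (chr16:23678639-23678888, + strand) and CCNA2 (chr4:121823884-121824133, - strand), the cyclin of S phase and G2 (late minus early -0.76 ± 0.16, named for its promoter), show the CCAAT box close to the start that many mitotic genes carry (CCAAT or ATTGG in capitals).
PLK1: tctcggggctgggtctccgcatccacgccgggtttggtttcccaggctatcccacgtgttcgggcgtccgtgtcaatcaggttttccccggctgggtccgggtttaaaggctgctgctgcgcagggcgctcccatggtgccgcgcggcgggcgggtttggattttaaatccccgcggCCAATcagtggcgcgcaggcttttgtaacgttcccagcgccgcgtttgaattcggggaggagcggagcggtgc
CCNA2: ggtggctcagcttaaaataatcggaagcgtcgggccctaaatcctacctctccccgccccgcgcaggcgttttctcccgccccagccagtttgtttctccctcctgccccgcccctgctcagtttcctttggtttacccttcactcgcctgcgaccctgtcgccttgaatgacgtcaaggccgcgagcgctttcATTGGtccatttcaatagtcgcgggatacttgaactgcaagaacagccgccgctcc
CCAAT on either strand occurred in 17 of 21 matched promoters of the mitosis list (81.0%) and 14 of 20 of the replication list (70.0%). The hexamer TTTGAA, which is the core of the CHR element of mitotic promoters, occurred in 11 of 21 (52.4%) and 1 of 20, against 9.66% of all matched promoters. CCNE2, the cyclin E2 that drives S-phase entry, stood at 0.56, 0.67 and 0.70 at 0.5 h, 0.57, 0.48 and 0.42 at 1 h, 0.05, -0.07 and -0.04 at 24 h and -1.26, -1.40 and -0.81 at 48 h. Its values fell modestly by 24 h and by more at 48 h, least in the DMSO-EGF arm. The difference was -1.16 ± 0.24 (adjusted p 0.00265, but 0.0703 when the 0.5 h arrays were left out). CDC25A, the phosphatase that activates CDK2, stood at 0.78, 0.70 and 0.82 at 0.5 h, 0.48, 0.57 and 0.64 at 1 h, -0.17, -0.32 and -0.27 at 24 h and -0.65, -0.90 and -0.49 at 48 h, a fall to 2.19-fold lower values (-1.13 ± 0.11, adjusted p 3.79e-05). MCM10 and CDC45, which activate the replication helicase, differed by -0.97 ± 0.20 and -0.80 ± 0.11. The call for MCM10 was lost when 0.5 h was left out (adjusted p 0.0562). ORC1, of the origin recognition complex, was also among the 15 lowest. Among mitotic genes PLK1, the polo-like kinase, stood at 0.25, 0.34 and 0.29 at 0.5 h, 0.19, 0.23 and 0.22 at 1 h, -0.42, -0.11 and -0.29 at 24 h and -0.88, -0.98 and -0.81 at 48 h. Its difference was -0.83 ± 0.13 (adjusted p 0.000585), and that of AURKB, the kinase of the chromosomal passenger complex, was -0.74 ± 0.10 (adjusted p 0.000206). CDK1, the mitotic kinase itself, fell less, by 0.45 ± 0.10 (adjusted p 0.00518, 0.088 when the arrays at 0.5 h were left out and 0.0612 when those at 1 h were). ARHGAP11A differed by -1.06 ± 0.16. NUP160, a nuclear pore subunit, differed by -1.27 ± 0.23 with the probe set read, while its 3 probe sets ran from -1.27 to -0.19. Genes of ribosome biogenesis and MYC targets fell as well, 12 of 15 called lower and 0 higher (median -0.49). BOP1 and NOP16, ribosome assembly factors, differed by -0.76 ± 0.13 and -0.70 ± 0.11, and ODC1, the rate-limiting enzyme of polyamine synthesis, by -0.49 ± 0.07. MYC itself was at 0.20 ± 0.10 (adjusted p 0.137).

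**Figure D3:**
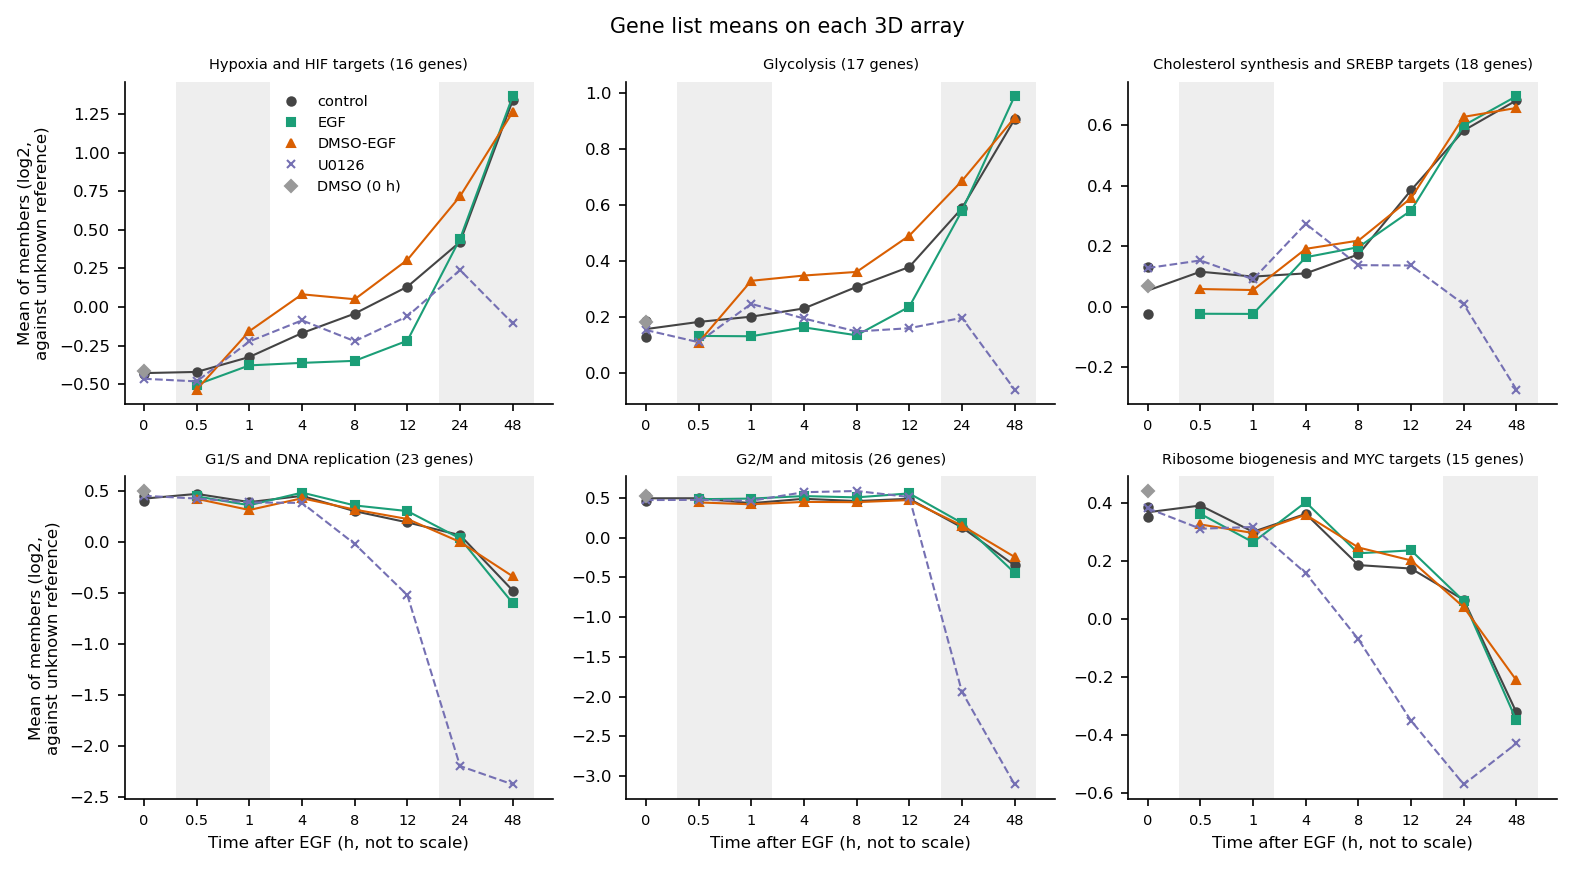
Mean value of the measured members of 6 gene lists (log2, against an unknown reference, vertical) on each 3D array by time (horizontal, not to scale), for the 3 arms without inhibitor (solid lines) and the U0126 arm (dashed); the diamond is the DMSO array at 0 h, and grey bands mark the early and late windows. Hypoxia and sterol genes climb over the course in the arms without inhibitor, and mitosis genes stay level to 12 h and fall at 24 and 48 h.

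The groups moved at different times. Relative to the mean of the early window, the mean of the hypoxia list lay at -0.04 at 0 h, 0.24 at 4 h, 0.27 at 8 h, 0.46 at 12 h, 0.91 at 24 h and 1.71 at 48 h. For cholesterol genes it lay at 0.11, 0.15, 0.31, 0.56 and 0.63 from 4 to 48 h. The mitosis list stayed within 0.05 of the early mean up to 12 h and then lay at -0.31 and -0.81. The replication list lay at -0.08 at 8 h, -0.16 at 12 h, -0.37 at 24 h and -0.87 at 48 h. These values are means over the arrays without inhibitor at a time, and their order was not tested.

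Genes linked to cell cycle exit rose in part. Of 17 CDK inhibitor and FOXO-linked genes 9 were called higher and 0 lower (median 0.40), against 16.7% and 16.9% of all genes. CCNG2, an unusual cyclin that restrains proliferation, stood at -1.15, -1.35 and -1.21 at 0.5 h, -0.67, -0.78 and -0.60 at 1 h, 0.40, 0.22 and 0.43 at 24 h and 0.83, 0.98 and 0.71 at 48 h. Its values were already higher at 1 h than at 0.5 h in each arm, and the late window lay 1.55 ± 0.16 above the early one (adjusted p 4.51e-05). TXNIP, the thioredoxin-binding protein that restrains glucose uptake, rose by 1.18 ± 0.21 (adjusted p 0.00104, 0.052 without the 0.5 h arrays), with early values of -0.98 to -0.45 and late values of -0.15 to 1.00. CDKN1C, the inhibitor p57, rose by 0.54 ± 0.08, and KLF6 by 0.86 ± 0.11.

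Outputs of the ERK pathway did not move as 1 group. Among all genes 16.7% were called higher and 16.9% lower, with a median of -0.01. Of 12 measured genes 9 were called higher and 2 lower (median 0.26), but after quantile normalization 3 were called higher and 3 lower. DUSP6, the phosphatase that inactivates ERK, stood at 2.62, 2.59 and 2.51 at 0.5 h, 2.48, 2.51 and 2.79 at 1 h, 3.47, 3.58 and 3.50 at 24 h and 3.65, 3.87 and 3.71 at 48 h, a rise of 1.05 ± 0.08 (adjusted p 1.28e-05). DUSP5 rose by 1.04 ± 0.13. The 2 that fell were FOSL1, an AP-1 subunit, at -0.30 ± 0.07 (named after its values were seen), and CCND1, cyclin D1, at -0.23 ± 0.05, whose call was lost with the mean of its probe sets (adjusted p 0.506). Of 19 immediate early genes, which respond to growth factors within an hour, 5 were called higher and 0 lower (median 0.13), or 2 when the 0.5 h arrays were left out. EGR1, the zinc finger factor, stood at 1.60, 1.57 and 1.59 at 0.5 h, 1.62, 1.93 and 1.87 at 1 h, 1.83, 1.84 and 1.85 at 24 h and 1.47, 1.35 and 1.58 at 48 h. Early and late values overlapped, and the difference was -0.04 ± 0.10 (adjusted p 0.803). FOS was at -0.17 ± 0.09 (adjusted p 0.175), with its 3 values at 48 h, -1.01, -0.95 and -0.96, below the others. JUNB rose by 0.72 ± 0.11 (adjusted p 0.000552). Of 9 EGFR ligands and receptors 4 were called higher and 2 lower (median 0.18), or 1 in each direction with the time as a random block.

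Adhesion genes that changed rose, as did most epithelial genes that changed. The counts that follow are to be read against 16.7% of all genes called higher, 16.9% called lower and a median of -0.01. Several of them lie near these shares. Of 13 integrin and adhesion genes 9 were called higher and 0 lower (median 0.41). ITGB4, the integrin chain of hemidesmosomes, stood at 0.41, 0.22 and 0.43 at 0.5 h, 0.30, 0.34 and 0.24 at 1 h, 1.07, 1.28 and 1.42 at 24 h and 1.62, 1.80 and 1.28 at 48 h and rose by 1.09 ± 0.11 (adjusted p 3.85e-05), with its 4 probe sets between 0.01 and 1.09. ITGA3 rose by 0.57 ± 0.09, ITGB3 by 0.66 ± 0.08 and L1CAM by 0.86 ± 0.17. Of 17 epithelial and luminal genes 7 were called higher and 1 lower (median 0.11), or 4 and 0 when either early time was left out. CLDN4, a tight junction claudin, had early values of -1.89 to -1.61 and late values of -0.80 to -0.37, a rise of 1.14 ± 0.08 (adjusted p 6.86e-06), and KRT19, a simple epithelial keratin, rose by 1.14 ± 0.11. DSP, desmoplakin, rose by 0.83 ± 0.12. CDH1, the marker named above, was at -0.04 ± 0.14. Of 11 mesenchymal genes 1 was called higher and 2 lower, or 1 and 0 with the time as a random block, the first being the cadherin CDH11 at 0.67 ± 0.08. Among 17 matrix genes 7 were called higher and 3 lower (median 0.10), or 3 higher and 5 lower after quantile normalization and 4 and 2 with the time as a random block. FN1, fibronectin, rose by 0.91 ± 0.13 and THBS1, thrombospondin 1, fell by 0.68 ± 0.07. Of 18 protease, inhibitor and invasion genes 6 were called higher and 3 lower (median 0.05), or 3 and 2 when either early time was left out. PLAT, tissue plasminogen activator, rose by 1.43 ± 0.20 (adjusted p 0.000252), and PLAU, urokinase, fell by 0.45 ± 0.06 (adjusted p 0.000211). S100A4 rose by 0.81 ± 0.08. Of 14 YAP and SRF targets 5 were called higher and 2 lower (median 0.04), with AMOTL2 at -0.45 ± 0.07. The counts were 0 and 1 when 0.5 h was left out, and 2 and 3 after quantile normalization.

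The ID genes, which encode helix-loop-helix inhibitors of differentiation driven by BMP and SMAD signals, fell. ID2 had the lowest difference of all called genes. It stood at -0.49, -0.51 and -0.37 at 0.5 h, -0.42, -0.62 and -0.42 at 1 h, -1.51, -1.47 and -1.18 at 24 h and -2.42, -1.85 and -2.40 at 48 h, and the difference was -1.33 ± 0.19 (adjusted p 0.000297), while its 3 probe sets ran from -1.33 to -0.21. ID3 stood at 1.28, 1.23 and 1.12 at 0.5 h, 0.98, 0.99 and 0.98 at 1 h, 0.93, 0.73 and 0.53 at 24 h and -0.52, -1.08 and -0.40 at 48 h, a difference of -1.06 ± 0.29 (adjusted p 0.0132, 0.163 leaving out 0.5 h, 0.0829 leaving out 1 h and 0.0724 without the DMSO-EGF arm). ID1 differed by -0.74 ± 0.23 (adjusted p 0.0258), with its 24 h values inside or just below the early range and its 48 h values at 0.62, 0.13 and 0.71. In the whole list of 15 TGF-beta and SMAD genes 4 were called higher and 6 lower (median -0.13), or 2 and 4 when 0.5 h was left out. Among all genes 16.7% were called higher and 16.9% lower, and 932 and 528 of 11874 when 0.5 h was left out. LTBP2, a latent TGF-beta binding protein, rose by 0.61 ± 0.14 (adjusted p 0.00521, 0.102 without the 0.5 h arrays), and TGFB2 fell by 0.41 ± 0.07.

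Lists of stress genes other than the hypoxia list showed mixed or small changes. They are to be read against 16.7% of all genes called higher, 16.9% called lower and a median of -0.01. With 0.5 h left out 932 of 11874 genes were called higher and 528 lower, and with 1 h left out 1284 and 878. With the time as a random block the counts were 1362 and 1284. Of 18 ATF4 and amino acid response genes 5 were called higher and 7 lower (median 0.13), or 2 and 5 when either early time was left out. VLDLR, a lipoprotein receptor, rose by 1.54 ± 0.17 (adjusted p 8.11e-05) and SLC7A11, the cystine transporter, fell by 0.65 ± 0.08 (adjusted p 0.000148). Of 11 NRF2 and oxidative stress genes 0 were called higher and 6 lower (median -0.14), or 4 lower with the time as a random block. NQO1, the quinone reductase, had early values of -0.14 to 0.07 and late values of -1.40 to -0.49, a difference of -0.88 ± 0.17 (adjusted p 0.00172). For the unfolded protein response 4 of 15 were called higher and 2 lower (median 0.02), and for heat shock 1 and 3 of 12 (median -0.08). For p53 targets the counts were 3 and 3 of 12 (median 0.09), and for BCL2 family genes 4 and 2 of 13 (median -0.01). When the 0.5 h arrays were left out these 4 lists had 1 and 0, 0 and 0, 1 and 1, and 3 and 0. Metallothionein and metal response genes were called lower in 3 of 8 cases (median -0.12; 0 when either early time was left out and 8 after quantile normalization), led by the zinc exporter SLC30A1 at -1.07 ± 0.24 (adjusted p 0.00439, 0.0698 leaving out 0.5 h and 0.0688 leaving out 1 h). Interferon-stimulated genes split, with 9 higher and 6 lower of 24 (median 0.11), or 4 and 4 when either early time was left out. IRF9, a subunit of the interferon-activated ISGF3 complex, rose by 0.85 ± 0.07 (adjusted p 1.49e-05), while IFI44 fell by 0.62 ± 0.09 (adjusted p 0.000289). Of 17 clock genes 6 were called higher and 2 lower (median 0.03), or 1 and 1 when 0.5 h was left out. BHLHE40, a clock repressor that HIF also induces, stood at -0.87, -0.97 and -0.88 at 0.5 h, -0.89, -1.01 and -1.10 at 1 h, 0.71, 1.02 and 0.96 at 24 h and 1.90, 2.09 and 1.81 at 48 h and rose by 2.37 ± 0.21 (adjusted p 2.91e-05). Lysosome and autophagy genes were 6 higher and 1 lower of 19 (median 0.09), which together is near the 33.6% of all genes called. Histone genes were 1 higher and 4 lower of 11 (median -0.18), or 1 and 1 with the time as a random block. CYP1B1, a hydroxylase under the aryl hydrocarbon receptor, fell by 0.91 ± 0.15, with its 4 probe sets from -0.91 to -0.04. Also among the 15 lowest were EFNB2 at -0.96 ± 0.11, OASL at -0.94 ± 0.14, ABCG2 at -0.91 ± 0.13, TOR3A at -0.90 ± 0.19 and SGK1 at -0.90 ± 0.18. The TOR3A call was lost when 0.5 h was left out (adjusted p 0.0859) and the SGK1 call when 1 h was (adjusted p 0.0605). ACTB was at -0.01 ± 0.05.

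The 24 and 48 h arrays differed from each other, and more genes were called against the early window at 48 h than at 24 h. Against the early window 2710 genes (22.8%) were called at 24 h and 5375 (45.3%) at 48 h. Between 48 and 24 h directly 3190 (26.9%) were called, 1073 (9.04%) higher at 48 h and 2117 (17.8%) lower. Without the control arm this count was 1805, and without the EGF arm 1429. Of the 3992 genes called late against early, 2062 were also called between 48 and 24 h in the same direction and 13 in the opposite one. The late window of that call holds the same 48 h arrays, which favours the same direction, so this split does not measure how often genes moved further. DDIT4 rose by a further 2.64 ± 0.12 from 24 to 48 h (adjusted p 6.49e-08). All 26 mitosis genes, 21 of 23 replication genes and 14 of 16 hypoxia genes were called again in their direction, against 5 higher and 2 lower of 18 cholesterol genes.

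**Figure D4:**
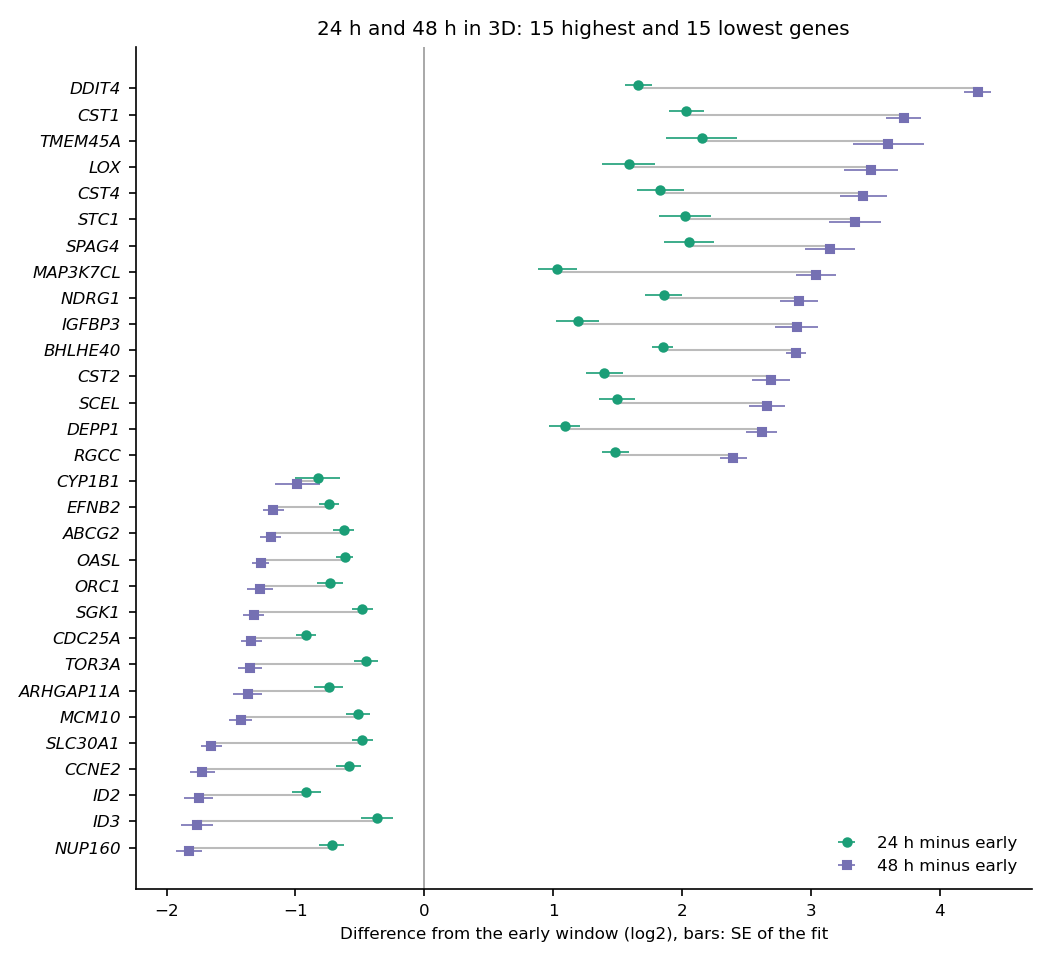
Difference from the early window (log2, horizontal; bars are the SE of the fit) at 24 h (circles) and 48 h (squares) for the 15 genes with the highest and the 15 with the lowest late against early difference in 3D. The 48 h point lies further from 0 than the 24 h point for each gene shown; DDIT4 moves from 1.66 to 4.30 and ID2 from -0.92 to -1.75.

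Inflammatory genes rose mainly between 24 and 48 h. Over all genes 16.7% were called higher and 16.9% lower late against early, and 9.04% and 17.8% at 48 h against 24 h. Of 18 measured cytokine and NF-kB target genes 4 were called higher and 1 lower late against early (median 0.01; 1 in all when the 0.5 h arrays were left out), but 9 were called higher and 0 lower at 48 h against 24 h (median 0.30). PTGS2, the inducible cyclooxygenase, stood at 0.11, 0.02 and -0.01 at 0.5 h, 0.42, 0.20 and 0.42 at 1 h, 0.11, 0.36 and 0.76 at 24 h and 3.86, 3.06 and 3.92 at 48 h. Its 24 h values overlapped the early ones, and the 3 values at 48 h lay far above, 3.20 ± 0.18 over 24 h (adjusted p 4.44e-07), lowest in the EGF arm. CXCL8, the neutrophil chemokine interleukin 8, stood at 1.58, 1.63 and 1.37 at 0.5 h, 1.72, 1.80 and 1.89 at 1 h, 1.68, 1.52 and 1.81 at 24 h and 4.25, 3.61 and 4.46 at 48 h, a step of 2.44 ± 0.16 from 24 to 48 h (adjusted p 3e-06). Over both late times together CXCL8 did not pass (adjusted p 0.0748). MMP1, the interstitial collagenase, stood at -0.73, -0.59 and -0.70 at 0.5 h, -0.53, -0.54 and -0.39 at 1 h, -0.31, -0.25 and -0.20 at 24 h and 1.30, 0.50 and 1.74 at 48 h and also rose mainly after 24 h, by 1.43 ± 0.19 (adjusted p 0.000161), least in the EGF arm. LIF rose sooner, with 2.15, 2.19 and 2.35 at 24 h against 1.32 to 1.73 early, a late against early difference of 1.03 ± 0.15 (adjusted p 0.00028). The ATF4 list turned upward at the same time, with 12 of 18 members called higher and 1 lower at 48 h against 24 h. Heat shock genes turned downward, with 9 of 12 lower.

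The arms did not differ detectably in this drift. For each pair of arms the difference in late minus early was tested, and limma called 0 genes (0%) for each. At an unadjusted p below 0.05 there were 195 for EGF minus control, 164 for DMSO-EGF minus EGF and 207 for DMSO-EGF minus control. The moderated F test over the 3 arms also called 0 (154 unadjusted). Each arm had 2 arrays per window, leaving 6 residual degrees of freedom, and a p above the threshold does not show that the arms drifted alike. The 3 genes with the smallest p were CREB3L1, JPT2 and FURIN. CREB3L1, a transcription factor of the endoplasmic reticulum, rose by 0.28 in control, 1.05 in EGF and 0.10 in DMSO-EGF cells (unadjusted F p 0.00137, adjusted p 1). DDIT4 rose by 2.94, 3.02 and 2.97 in the same order.

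The same arms and times in 2D culture gave 12 late and 12 early arrays of the series 2D03 and 2D04. Against these, the rise of the hypoxia genes was larger in 3D, while the sterol and mitosis changes occurred in both cultures. In 2D 2361 genes (19.9%) were called, or 3626 (30.5%) with the 2D repeat number as a replicate block. Single-gene values of 2D and of 3D minus 2D are from the fit without this block. The difference between the 3D and the 2D drift was called for 894 genes (7.53%), 523 higher (4.40%) and 371 lower (3.12%) in 3D. With the replicate block it was called for 1977 (16.6%), and after quantile normalization the split was 431 higher and 481 lower. As 3D is a single series, culture and series cannot be told apart. Of the 3992 genes called in 3D, 1310 were called in 2D in the same direction, 113 in the opposite direction and 2569 were not called there. Hypoxia genes in 2D were 4 higher and 1 lower of 16, against 9.1% of all genes called higher, with a median of 0.08, and the difference between cultures was called positive for 14 of 16 (median 0.89; 11 after quantile normalization). For DDIT4 the 2D difference was 0.17 ± 0.31 and 3D minus 2D was 2.81 ± 0.61 (adjusted p 0.00376). For LOX they were -0.20 ± 0.18 and 2.73 ± 0.41 (adjusted p 7.26e-05), and for TMEM45A -0.11 ± 0.25 and 2.99 ± 0.47 (adjusted p 0.000115). Glycolysis genes were called positive in 9 of 17 cases (12 with the block), but ALDOC rose in both cultures, by 1.57 ± 0.19 in 2D. ADM, the vasodilator peptide adrenomedullin, rose by 1.04 ± 0.27 in 3D and fell by 0.87 ± 0.10 in 2D (named after its values were seen). CST1 differed by 2.31 ± 0.45 (adjusted p 0.00129) between cultures.

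**Figure D5:**
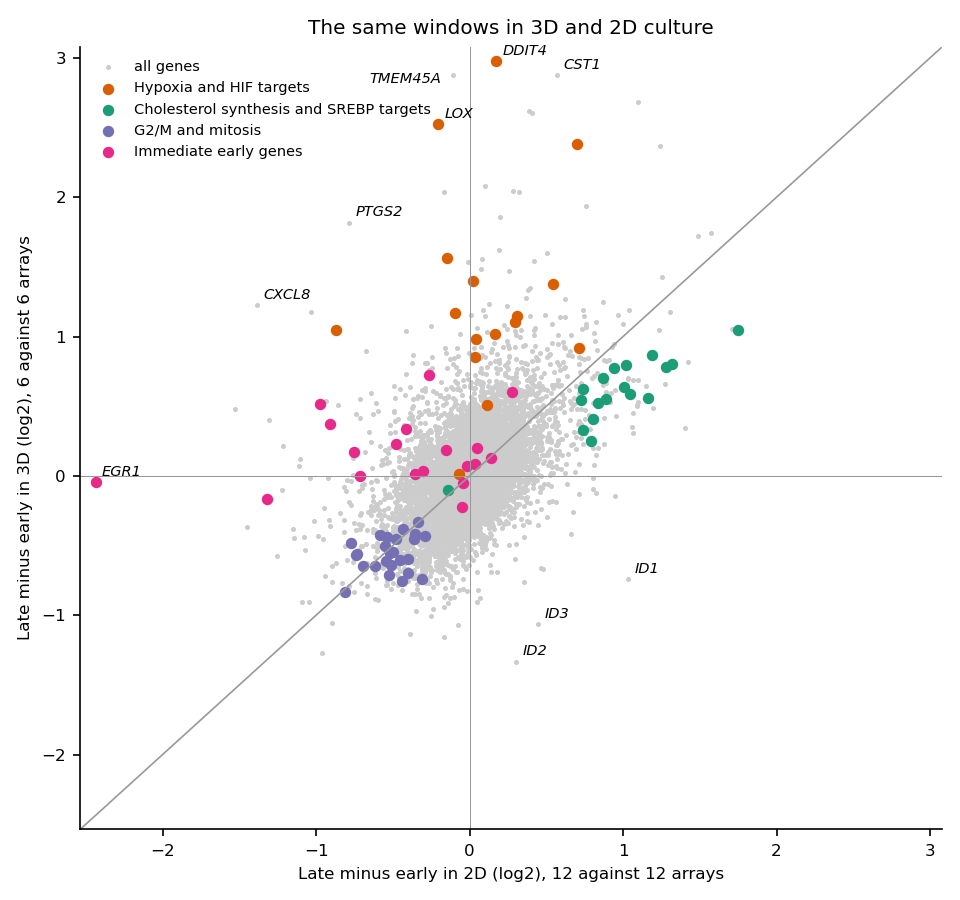
Late minus early difference in 3D (log2, vertical, 6 against 6 arrays) against the same difference in 2D (log2, horizontal, 12 against 12 arrays) for all 11874 genes (grey), with 4 lists in colour and the line of equal change. Most hypoxia genes lie above the line, 17 of 18 cholesterol genes above 0 in both cultures, EGR1 at -2.44 in 2D and -0.04 in 3D, and ID1, ID2 and ID3 below 0 in 3D and above 0 in 2D.

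Cholesterol genes were called higher in 17 of 18 cases in 2D (median 0.92), and 3D minus 2D was called negative for 2 (8 with the block). Mitosis genes were called lower in 23 of 26 cases in 2D (median -0.51), against 10.8% of all genes, and differed between cultures in 1. The 2 series differed, with medians of -0.76 in 2D03 and -0.25 in 2D04. Against 2D03 alone 3D minus 2D was called positive for 4 mitosis genes and negative for 0 (1426 and 942 of all genes). Against 2D04 alone it was called positive for 0 and negative for 3 (712 and 837 of all genes). Replication genes were called lower in 3 of 23 cases in 2D (median -0.13), a share near the 10.8% of all genes. The count was 10 with the block, where 16.9% of all genes were lower, and 21 in the series 2D04 alone. For them 3D minus 2D was called negative for 3 genes, or 17 with the block. Immediate early genes went the other way. In 2D 10 of 19 were called lower, against 10.8% of all genes, and 1 higher (median -0.31), and 3D minus 2D was positive for 8 and negative for 0 (11 and 0 with the block). EGR1 fell by 2.44 ± 0.20 in 2D, and the cultures differed by 2.39 ± 0.30 (adjusted p 3.98e-06). FOS differed by 1.16 ± 0.18 (adjusted p 7.26e-05). PTGS2 and CXCL8 lay at -0.78 ± 0.32 and -1.39 ± 0.49 in 2D, and the cultures differed by 2.60 ± 0.69 (adjusted p 0.0165) and 2.61 ± 0.82 (adjusted p 0.0435). Both calls were lost without any single 48 h array of 3D (adjusted p 0.0552 to 0.0586 for PTGS2 and 0.11 to 0.121 for CXCL8). The CXCL8 call was also lost without any single 0.5 or 1 h array and after quantile normalization (adjusted p 0.0676). Of 21 alternatives, 17 kept the PTGS2 call and 11 the CXCL8 call. Against the series 2D04 alone PTGS2 differed by 1.53 (adjusted p 0.179). The ID genes rose in 2D where they changed and fell in 3D. For ID1 the 2D difference was 1.03 ± 0.19 and 3D minus 2D was -1.78 ± 0.33 (adjusted p 0.000836). For ID2 they were 0.31 ± 0.09 and -1.64 ± 0.19 (adjusted p 2.02e-06). BAMBI, a decoy receptor of TGF-beta signals, and FGFR3 also fell in 3D and rose in 2D, with differences of -1.15 ± 0.20 and -1.13 ± 0.17. TXNIP rose in 3D and fell in 2D (-1.04 ± 0.29), and the cultures differed by 2.21 ± 0.45 (adjusted p 0.00202).

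In the U0126 arm of the same 3D series, 2 early and 2 late arrays, 4404 genes (37.1%) were called late against early. This late minus early difference departed from the mean of the other arms for 2711 genes (22.8%), 1455 higher (12.3%) and 1256 lower (10.6%). All 26 mitosis and 21 of 23 replication genes fell further with the inhibitor, to medians of -2.93 and -2.60. The hypoxia list had a median of 0.01 in the U0126 arm, and the difference from the other arms was called negative for 8 of 16 genes and positive for 0. Members did not behave alike. LOX was at 0.01 and NDRG1 at -0.10 with U0126, while DDIT4 rose by 3.65 and VEGFA by 1.48 there. For 13 of 18 cholesterol genes the U0126 drift was lower (median -0.34 in that arm), including HMGCS1 at -0.56, while LSS was at 0.86. EGR1 fell by 2.02 with U0126, a difference of -1.97 ± 0.25 from the other arms (adjusted p 0.000119).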

How the data were processed

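RNA of 96 samples was measured on Affymetrix arrays, and 12 arrays carry the comparison. The deposited table holds values of 22930 probe sets, presumed log2 because the submitters' processing notes name RMA. The log2 base, the reference each probe set was centred on and the genome build are not given in the sources used here. The members and the 35 gene lists were chosen with earlier results of these data known. Where a gene had several probe sets, the one whose values varied most over the 96 arrays stood for it, a choice that can favour larger changes, and 11874 genes resulted. Of the probe sets, 524 array controls, 125 with several symbols, 2866 not listed in the annotation and 125 whose symbol is not in RefSeq were left out. Of 604 list entries 540 were measured. Array number limits the precision.

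Differences were fitted with limma 3.58.1 (lmFit, eBayes with a variance trend) in R 4.3.3, with the arm as a block (8 residual degrees of freedom) and Benjamini-Hochberg adjustment over all genes. No list was tested as a set. Lists are described by their counts and medians, to be read against 16.7% of all genes called higher, 16.9% called lower and a median of -0.01. Named were the 15 called genes furthest up and the 15 furthest down that moved one way in the 3 arms, up to 4 members a list with the smallest adjusted p, the extreme genes of the other comparisons and a fixed set with EGR1, FOS, DUSP6, MYC, CCND1, HMGCS1, VEGFA, TXNIP, CXCL8, MMP1, CDK1, MCM2, GAPDH and ACTB. Exceptions are stated beside their values. The procedure was tested on simulated data. Repeat numbers pair the 2D samples through the series label: over 66 pairs of groups the correlation of their deviations was 0.438 to 0.819 (median 0.645), so 2D results were refitted with this block. Alternatives were other probe set rules, a filter, scalings, weights, time as a random block, and arrays, times or arms left out. Figures were drawn with matplotlib 3.10.9.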

Additional observations from a re-analysis of the deposited data

Results flagged for a closer look

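A single array stood apart from the others of its window among 55 genes checked in 110 windows of 6 arrays. DDIT4 was at -2.24 in the DMSO-EGF cells at 1 h, with the other early arrays between -2.89 and -2.69. The cutoff used is set for about 1 window in 20 by chance if all 6 arrays of a window vary alike. Each window here pools 2 times, so this rate need not hold.

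A second set was singled out because its drift in 3D differed from the drift in 2D by a test of that difference (limma). The positive differences were 2.99 for TMEM45A, 2.81 for DDIT4, 2.73 for LOX, 2.61 for CXCL8, 2.60 for PTGS2, 2.39 for EGR1, 2.31 for CST1 and 2.23 for CST4. The negative ones were -1.78 for ID1, -1.64 for ID2, -1.51 for ID3, -1.15 for BAMBI, -1.13 for FGFR3, -1.12 for PTGES, -1.09 for CCL2 and -1.07 for ID4. The ID3 call was lost without any single 0.5, 1 or 48 h array of 3D (adjusted p up to 0.129). The ID4 call was lost without any single 48 h array, without the EGF array at 0.5 h and without the control array at 1 h (adjusted p up to 0.0707). Against the series 2D03 alone ID4 was at -0.58 (adjusted p 0.16) and PTGES at -0.51 (adjusted p 0.0913). For CCL2, a monocyte chemokine, the 3D difference was -0.14 ± 0.08 and the 2D difference 0.95 ± 0.18.

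Another set differed between the U0126 arm and the mean of the other 3D arms in late minus early, by a test of that difference. The drift was higher with U0126 by 4.76 for CYP1B1, 4.21 for CYP1A1, 3.75 for VIPR1, 3.65 for ATP8A1 and 3.44 for SLC4A4. The difference was -4.54 for AOX1, -4.30 for STC1, -4.25 for TMEM158, -4.16 for CST1 and -4.04 for SPC25. The U0126 arm had 2 arrays a window.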

How the results depend on the processing

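Late against early in 3D kept a count within 1.5 times of 3992 under 13 alternatives (2667 to 5257) and in leave-one-out fits (3343 to 4263). It moved to 2646 with the time as a random block (consensus correlation 0.335), 0 with arms averaged, 1460 with 0.5 h left out, 2162 with 1 h left out, 2628 without the EGF arm and 2497 without the DMSO-EGF arm. All but the random block hold fewer arrays or values, and any further cause was not tested. The 48 h against 24 h count moved to 1805 without the control arm and 1429 without the EGF arm (2129 to 3228 in leave-one-out fits). For 2D the replicate block gave 3626 and the series 2D04 alone 3993. The 3D minus 2D count was 1977 with the replicate block, 1468 with array weights, 2368 against 2D03 alone and 1549 against 2D04 alone; leave-one-out fits gave 499 to 1129, with 521, 499 and 565 without the 48 h array of the control, EGF and DMSO-EGF arms. The causes were not tested. Of 34 lists with a called member, the number called in both directions together moved by over 1.5 times for 11 with time as a random block. It moved for 23 with 0.5 h left out, 20 with 1 h left out and 2 after quantile normalization. A shift from higher to lower is not counted in this way. After quantile normalization matrix genes went from 7 higher and 3 lower to 3 and 5, and YAP and SRF targets from 5 and 2 to 2 and 3. Of 160 named genes called late against early, 103 were called under all alternatives other than averaged arms, and 140 with time as a random block. A sign turned in 16 cases, all for values that did not pass or no longer passed: ACTB (-0.0413 to 0.0225 in leave-one-out fits, 0.0033 with 0.5 h left out, 0.07 with 48 h left out, 0.025 without the control arm), EGR1 (-0.0988 to 0.0319 in leave-one-out fits, 0.0580 with 0 h arrays added, 0.0667 and 0.143 with 1 or 48 h left out, 0.0125 without the EGF arm), CCN2 (-0.13) and EREG (-0.16) after quantile normalization, FOS (0.02) and MYC (-0.0050) with 48 h left out, and FTL (0.015) with the probe set of largest SD outside the 12 arrays. Signal over background was not given, so low signals could not be set apart.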

Other observations

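Between 1 and 12 h the hypoxia list stood at different values in the arms without inhibitor. At 4 h its mean on the array was -0.17 in control, -0.36 in EGF and 0.08 in DMSO-EGF cells, at 8 h -0.04, -0.35 and 0.05, and at 12 h 0.13, -0.22 and 0.30. The EGF array was the lowest and the DMSO-EGF array the highest of the 3 at 1, 4, 8 and 12 h, although both arms had received the same dose of EGF. At 24 h the means were 0.42, 0.44 and 0.72, and at 48 h 1.34, 1.37 and 1.26. The glycolysis list had the same order at 1, 4, 8 and 12 h, with 0.38, 0.24 and 0.49 at 12 h. NDRG1 at 12 h stood at 1.17 in control, 0.48 in EGF and 1.59 in DMSO-EGF cells. Each value is 1 array, the comparison was noticed in the data, and it was not tested.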
